A study of Mus musculus with 18 samples.

Results

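The 10 genes described here encode C-type lectin receptors and related receptors of myeloid cells: *Clec4a1*, *Clec4a2*, *Clec4a3*, *Clec4b1*, *Clec4d*, *Clec4e*, *Clec4n*, *Clec5a*, *Clec7a* and *Clec12a*. They were chosen by gene symbol, as 10 of the 21254 genes in the count table, and all 10 passed the filter on low counts that kept 15811 genes for testing. The counts came from bulk RNA-seq of 3 macrophage populations sorted from inflamed mouse lung, with 3 libraries in each of 6 groups of population and genotype, 18 in all. Monocyte-derived macrophages (moMs) were sorted as CD11b+ MHC-II- Ly6C+ cells, transitional interstitial macrophages (tnsIMs, labelled trIM) as MHC-II+ Ly6C+ cells, and mature interstitial macrophages (matIMs) as MHC-II+ Ly6C- cells. All mice were C57BL/6, aged 3 to 5 months, and had inhaled lipopolysaccharide (LPS) of *Pseudomonas aeruginosa*, nebulized as 12.5 mg in 5 ml over 15 min, 24 h before the lungs were taken. *Ezr*-KOm mice carried floxed *Ezr* alleles and a Cre recombinase under *Cx3cr1*, so that ezrin, a linker between the membrane and actin, is lost in monocytes and their progeny. The wild-type (WT) mice carried the same Cre with intact *Ezr*. The *Cx3cr1* promoter is also weakly active in classical dendritic cells, eosinophils and NK cells, and no unexposed mice were part of these comparisons.

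C-type lectin receptors are membrane proteins with a lectin-like domain, and many of them recognise glycans or glycolipids of microbes or products of damaged cells. Activating members signal through the kinase Syk and the adaptor Card9. Dectin-1 (*Clec7a*) does so through a motif in its own tail, dectin-2 (*Clec4n*), MCL (*Clec4d*), Mincle (*Clec4e*) and DCAR (*Clec4b1*) through the Fc receptor gamma chain (*Fcer1g*), and *Clec5a* through DAP12 (*Tyrobp*). Inhibitory members, DCIR (*Clec4a2*) and MICL (*Clec12a*), carry tail motifs that recruit phosphatases such as SHP-1 (*Ptpn6*). In lung macrophages these receptors are known for the recognition of fungi and mycobacteria, and Mincle is known as a gene induced by LPS.

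All 10 genes lie on chromosome 6 of GRCm39 in 3 places. *Clec5a* stands alone at chr6:40551828-40562755. A stretch of 368 kb, chr6:122898807-123266829, holds 7 of the genes in the order *Clec4a1*, *Clec4a3*, *Clec4b1*, *Clec4a2*, *Clec4n*, *Clec4d* and *Clec4e*. *Clec12a* and *Clec7a* are the ends of a 130 kb stretch, chr6:129319654-129449742. *Clec4a4* and *Clec4b2*, relatives that lie within the 368 kb stretch, were at most at 2.60 and 0.698 CPM in any library (CPM is the usual count-per-depth unit, a gene's count scaled to the TMM-adjusted total of its library). No stretch of 100 bases in the annotated transcripts of 9 of the genes occurred in a transcript of another gene. For *Clec4a2* 1.95% of such stretches also occurred in *Clec4a4*.

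The 250 bases before the annotated start of transcription (Gencode vM39, GRCm39) are shown for the 4 genes whose levels took different courses between populations: *Clec4e* fell, *Clec4n* was highest in tnsIMs, *Clec4b1* rose and *Clec5a* fell only at the last step. Each is written 5′ to 3′ on the gene's own strand, and capitals mark GAGGAA or its reverse complement TTCCTC, the core bound by the myeloid factor PU.1.
Clec4e, chr6:123266830-123267079, minus strand: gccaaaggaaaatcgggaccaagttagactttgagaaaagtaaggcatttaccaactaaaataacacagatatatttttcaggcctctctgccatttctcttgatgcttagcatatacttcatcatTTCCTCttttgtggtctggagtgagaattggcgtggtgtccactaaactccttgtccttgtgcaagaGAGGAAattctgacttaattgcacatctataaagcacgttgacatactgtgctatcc
Clec4n, chr6:123206552-123206801, plus strand: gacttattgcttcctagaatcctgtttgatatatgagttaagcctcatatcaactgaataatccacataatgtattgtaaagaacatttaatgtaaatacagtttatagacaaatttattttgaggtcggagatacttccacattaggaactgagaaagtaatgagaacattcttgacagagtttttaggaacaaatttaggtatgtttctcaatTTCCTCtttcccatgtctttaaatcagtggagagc
Clec4b1, chr6:123026671-123026920, plus strand: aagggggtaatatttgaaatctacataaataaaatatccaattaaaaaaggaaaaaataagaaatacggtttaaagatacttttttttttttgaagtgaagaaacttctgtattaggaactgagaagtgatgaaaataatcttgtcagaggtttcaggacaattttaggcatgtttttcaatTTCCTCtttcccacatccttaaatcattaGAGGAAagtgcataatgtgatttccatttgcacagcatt
Clec5a, chr6:40562774-40563023, minus strand: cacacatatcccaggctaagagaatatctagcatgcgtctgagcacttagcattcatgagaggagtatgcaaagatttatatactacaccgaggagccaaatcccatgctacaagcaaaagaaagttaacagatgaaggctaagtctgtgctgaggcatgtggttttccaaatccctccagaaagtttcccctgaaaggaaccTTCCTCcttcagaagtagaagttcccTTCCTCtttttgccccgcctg
The core was present on either strand in 9 of the 10 windows, all but that of *Clec12a*, and in 22.9% of the 21770 windows of the same length before protein-coding genes. *Clec4n* carried it once, from 35 to 30 bases before the start, and the other windows printed here carried it at 2 places each. TTNNGNAA, a loose form of the C/EBP motif, was in 6 of the 10 windows and in 36.9% of all windows. TGANTCA, the AP-1 motif, was in 0 of the 10 and in 6.17% of all. The NF-kB motif in a loose form was in 1 of the 10 and in 47.8% of all. The repeat bound by interferon regulatory factors was in the windows of *Clec4d* and *Clec4b1* and in 3.32% of all windows. TATAAA was in 3 of the 10, those of *Clec4e*, *Clec4n* and *Clec5a*, and in 11.9% of all. These are matches of letters on either strand, searched separately, so that motifs may overlap, and binding was not measured. Several of the genes are close relatives, so the 10 windows are not independent of each other. In the windows of *Clec12a*, *Clec4d* and *Clec4a3*, 145, 142 and 120 of the 250 bases lay in annotated exons.

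The libraries held 16512783 to 48460995 counts each. The lowest count of any of the 10 genes in any library was 208. *Ezr* itself, the targeted gene, was at 497 to 741 CPM in the 9 WT libraries and at 93.9 to 282 CPM in the 9 *Ezr*-KOm libraries, with no overlap. By edgeR its log2 fold change between genotypes was -1.20 ± 0.24 (SE) in moMs, where its adjusted p of 0.0549 was not under 0.05. It was -1.62 ± 0.24 in tnsIMs (adjusted p = 0.00365) and -2.29 ± 0.25 in matIMs (adjusted p = 7.73e-05). The second WT tnsIM library was the shallowest. Summed over 6 markers of mature migratory dendritic cells, the level was 35.3 to 62.2 CPM in moMs, 309 to 555 CPM in tnsIMs and 4873 to 6999 CPM in matIMs. The 9 markers of conventional dendritic cells summed to 369.6 to 472 CPM in moMs, 657 to 883 CPM in tnsIMs and 1555 to 2319 CPM in matIMs. The 7 markers of classical monocytes went the other way, from 5157 to 6651.5 CPM in moMs to 1121 to 1434 CPM in matIMs, and the 8 markers of macrophages and monocytes from 31262 to 40941 CPM to 10407 to 13777 CPM. The 8 interstitial macrophage markers summed to 3140 to 4722 CPM in moMs, 3136 to 4645 CPM in tnsIMs and 2238 to 3112 CPM in matIMs. From moM to matIM, 3 of these 8 were higher and 3 lower at an adjusted p under 0.05 in each genotype. Epithelial transcripts summed to 1476 to 3960.0 CPM in tnsIMs, against 19.6 to 123 CPM in moMs and 164 to 364 CPM in matIMs. The neutrophil genes *Ly6g*, *Camp* and *Stfa2l1* were at most 2.39 CPM in every library, although the 11 neutrophil markers summed to 612 to 893 CPM in moMs and 205 to 452 CPM in matIMs. The part of these markers in the results below was not tested, and in sorted bulk samples fewer cells of a type and less RNA per cell cannot be told apart.

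Scaled to transcript length, 3 receptors stood above the rest in every group. The RPKM, CPM divided by the exonic length in kilobases, in WT moMs was 437 ± 35.7 (SD, n = 3, as for all RPKM values here) for *Clec7a*, 435 ± 89.0 for *Clec4e* and 394 ± 59.5 for *Clec4n*, and the ranges of neighbours in this order overlapped. *Clec4d* followed at 92.9 ± 14.8 RPKM, below every value of *Clec4n*. *Clec4a3*, *Clec5a*, *Clec4a1*, *Clec4a2* and *Clec12a* lay between 57.3 and 85.3 RPKM, and *Clec4b1* was last at 14.8 ± 2.43 RPKM, with no overlap with *Clec12a* above it. In WT tnsIMs *Clec4n* led at 732 ± 221 RPKM, in overlap with *Clec7a* at 496 ± 53.8 RPKM, and *Clec4e* was below both at 285 ± 51.8 RPKM. In WT matIMs the order began with *Clec4n* at 455 ± 107 RPKM and *Clec7a* at 433 ± 70.7 RPKM, which overlapped, and *Clec4e* was at 153 ± 37.8 RPKM, again without overlap. *Clec4b1* had moved up from the last place to the one below *Clec4e*, at 53.1 ± 7.13 RPKM, in overlap with *Clec5a* below it. In *Ezr*-KOm matIMs it also followed *Clec4e*, at 59.6 ± 12.2 RPKM, above every value of *Clec4d*, the next gene. The CPM of the 10 genes summed to 4899.5 to 5980.1 in WT moMs, 4774 to 5244 in WT tnsIMs and 2940.5 to 3893 in WT matIMs.

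**Figure D1:**
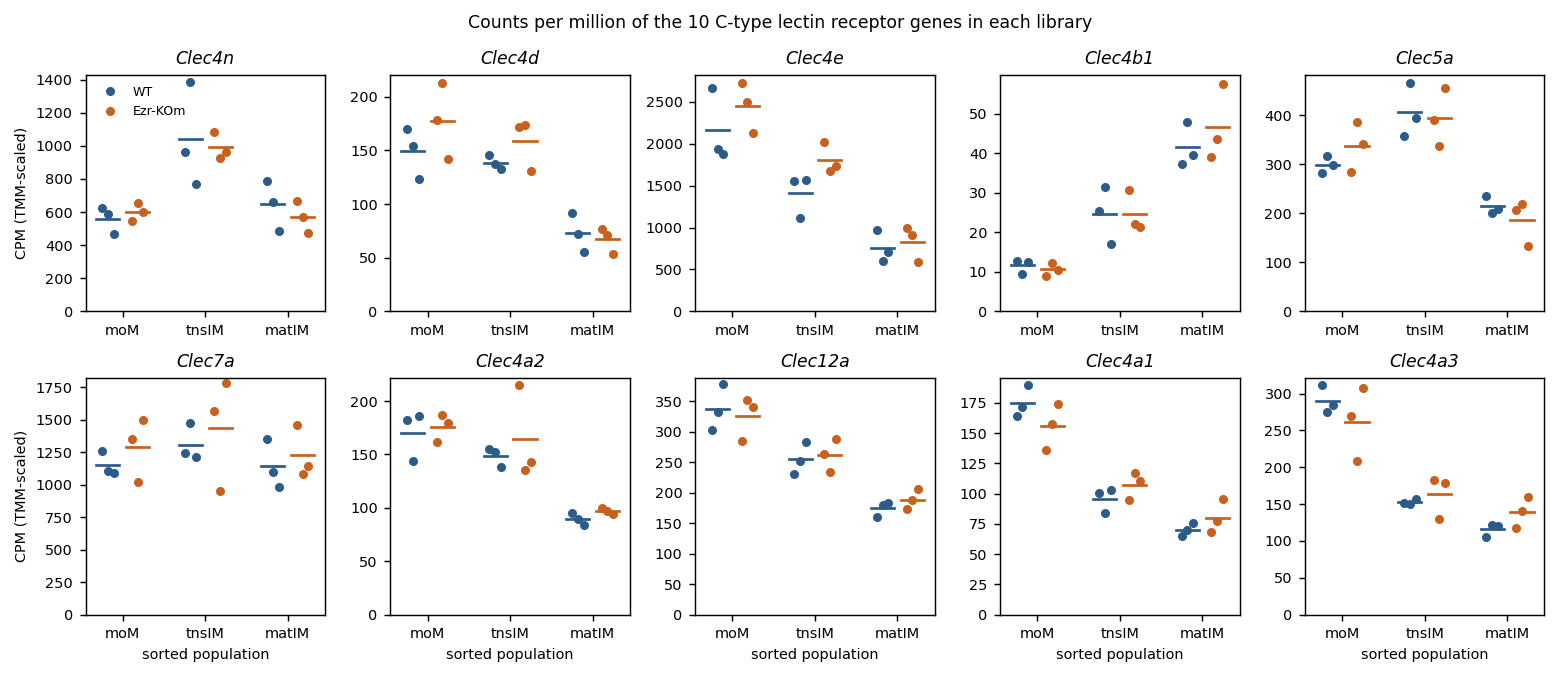
CPM on the TMM scale (y axis, from 0, with its own range in each panel) of each of the 10 genes in each of the 18 libraries, by sorted population (x axis) and genotype (colour); points are libraries and bars are means of 3. *Clec4e* stepped down from moMs to matIMs, *Clec4b1* stepped up, *Clec4n* and *Clec5a* were highest in tnsIMs, and the levels of *Clec7a* overlapped between all 3 populations.

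The comparison of populations asks how the receptors differ between the MHC-II- Ly6C+, MHC-II+ Ly6C+ and MHC-II+ Ly6C- gates. All cells were taken at 24 h and were not followed over time, so the steps, rises and falls are differences between populations. The paper reports that untreated lungs held mainly tissue-resident interstitial macrophages, so matIMs may include cells that were not recruited. From WT moMs to WT matIMs, 6 of the 10 genes fell and 1 rose at an adjusted p under 0.05 (edgeR quasi-likelihood test with Benjamini-Hochberg adjustment over all genes tested, as for every adjusted p here). Over all genes tested in this comparison, 11.4% were lower and 13.4% higher. The median log2 fold change was -0.94 over the 10 genes and 0.01 over all genes tested. The 6 that fell were *Clec4e*, *Clec4a3*, *Clec4a1*, *Clec4d*, *Clec12a* and *Clec4a2*, by 2.85-fold to 1.90-fold. The gene that rose was *Clec4b1*, 3.58-fold. *Clec4n*, *Clec5a* and *Clec7a* were not called. In *Ezr*-KOm mice 7 genes were lower and 1 higher, against 10.7% and 12.5% of all genes tested. Of these 8 calls, 7 were the same gene and direction as in WT, and the other was *Clec5a*. The share of all genes called alike in both genotypes was not counted, so this agreement cannot be set against a background.

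**Figure D2:**
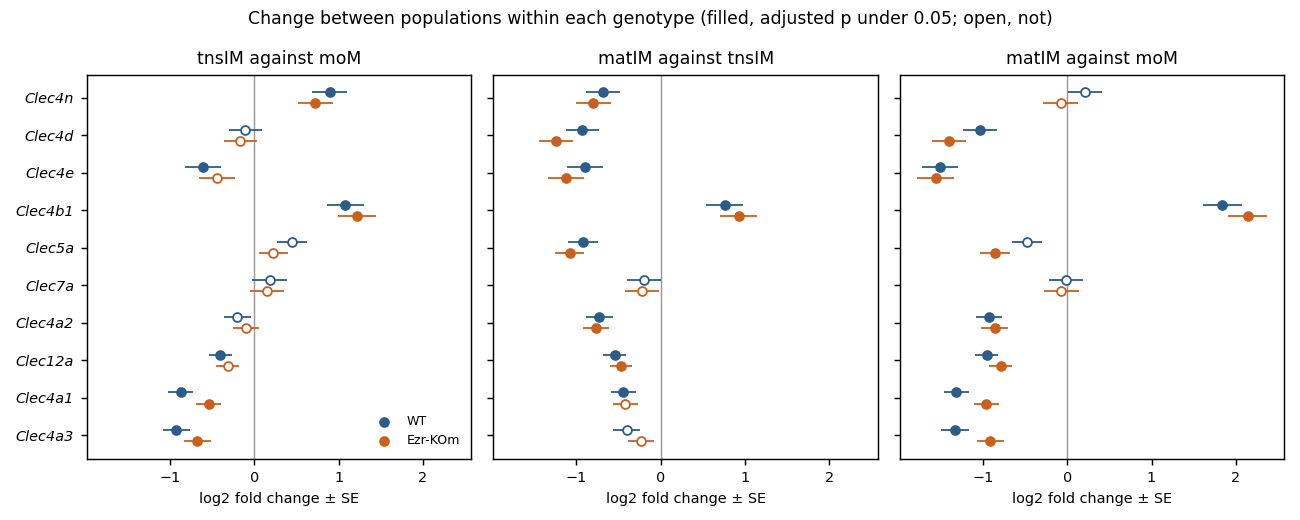
Log2 fold change (x axis, bars are the standard error) of each of the 10 genes between sorted populations, in WT and in *Ezr*-KOm mice; filled points passed an adjusted p of 0.05 and open points did not. Only *Clec4b1* rose at both steps, and the largest falls from moM to matIM were those of *Clec4e*, by 1.51 on the log2 scale in WT and by 1.56 in *Ezr*-KOm.

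Among the receptors that pair with the Fc receptor gamma chain, *Clec4e* had the largest fall from moM to matIM in both genotypes, while at the second step the fold change of *Clec4d* was the larger. Its level in the 3 WT moM libraries was 2667, 1935 and 1872 CPM, in WT tnsIMs 1556, 1116 and 1567 CPM, and in WT matIMs 967, 605 and 703 CPM. In *Ezr*-KOm mice it was 2718, 2502 and 2131 CPM in moMs, 2016, 1669.7 and 1738 CPM in tnsIMs, and 992, 912 and 589.6 CPM in matIMs. Within each genotype the 3 populations formed 3 steps with no overlap. The log2 fold change from moM to matIM was -1.51 ± 0.22 (SE, adjusted p = 4.08e-05) in WT and -1.56 ± 0.22 (adjusted p = 2.92e-05) in *Ezr*-KOm. The second step, from tnsIM to matIM, was -0.90 ± 0.21 in WT (adjusted p = 0.00538) and -1.12 ± 0.22 in *Ezr*-KOm (adjusted p = 0.000940). The first step, from moM to tnsIM, was near the threshold, with -0.61 ± 0.21 in WT (adjusted p = 0.0480) and -0.44 ± 0.21 in *Ezr*-KOm (adjusted p = 0.20). The WT call for the first step held in 2 of the 18 fits that left out 1 library, and in those fits its log2 fold change ran from -0.70 to -0.44. It held in 4 of the 9 other settings, where the replicate number as a block gave -0.59 ± 0.16 (adjusted p = 0.00936). It was lost, at -0.61 to -0.52, with upper-quartile scaling, library totals, no filter, at least 10 counts in every library, or only the groups compared. Over all alternatives the adjusted p ran from 0.00301 to 0.24.

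*Clec4d*, the neighbour and partner of Mincle, was not called between moMs and tnsIMs and was lower in matIMs. It was at 170.3, 154 and 123 CPM in WT moMs, 146, 137 and 133 CPM in WT tnsIMs, and 91.7, 71.7 and 55.0 CPM in WT matIMs. The first step was -0.10 ± 0.20 on the log2 scale in WT (adjusted p = 0.75) and -0.16 ± 0.20 in *Ezr*-KOm (adjusted p = 0.65). Its second step was -0.93 ± 0.20 in WT (adjusted p = 0.00219) and -1.24 ± 0.20 in *Ezr*-KOm (adjusted p = 0.000173), and every matIM library lay below every tnsIM library of its genotype. The counts of *Clec4e* per count of *Clec4d*, a ratio taken within a library and free of its scaling, were 12.6 to 15.7 in WT moMs, 8.15 to 11.8 in WT tnsIMs and 8.43 to 12.8 in WT matIMs. The moM and matIM ranges of this ratio overlapped.

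*Clec4n*, dectin-2, a receptor for fungal mannans, was highest in tnsIMs. The 3 WT moM libraries had 627, 586 and 465 CPM, the WT tnsIM libraries 965, 1384.5 and 769 CPM, and the WT matIM libraries 789.8, 661 and 488 CPM. The tnsIM values were above all moM values, and the lowest tnsIM value was within the range of the matIM values. In *Ezr*-KOm mice tnsIMs, at 928 to 1086 CPM, were above both moMs, at 547 to 655 CPM, and matIMs, at 475 to 665 CPM. From moM to tnsIM it rose by 0.89 ± 0.21 on the log2 scale in WT (adjusted p = 0.00433) and by 0.72 ± 0.21 in *Ezr*-KOm (adjusted p = 0.0229). From tnsIM to matIM it fell by 0.69 ± 0.21 in WT (adjusted p = 0.0244) and by 0.80 ± 0.21 in *Ezr*-KOm (adjusted p = 0.00936). Between the ends, moM and matIM, the difference was 0.21 ± 0.21 in WT and -0.08 ± 0.20 in *Ezr*-KOm, and neither was called (adjusted p = 0.51 and 0.85). Without the second WT tnsIM library, the highest value, the WT rise was 0.66 and still called, and the WT fall was 0.45 and not called. The WT fall was also lost without the second or the third WT matIM library, at -0.73 and -0.54, and with only the groups compared, at -0.70. In *Ezr*-KOm the rise was not called without the first or the third moM or the first tnsIM library, at 0.70, 0.74 and 0.64, nor the fall without the third matIM library, at -0.71.

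Counts of *Clec4e* per count of *Clec4n* within a library were 4.25, 3.30 and 4.03 in WT moMs, 1.61, 0.806 and 2.04 in WT tnsIMs, and 1.23, 0.915 and 1.44 in WT matIMs. In *Ezr*-KOm libraries they were 3.54 to 4.97, 1.80 to 1.86 and 1.24 to 1.59. Every moM library of either genotype lay above every tnsIM and matIM library, so that *Clec4e* was counted several times as often as *Clec4n* in moMs and about as often in matIMs.

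**Figure D3:**
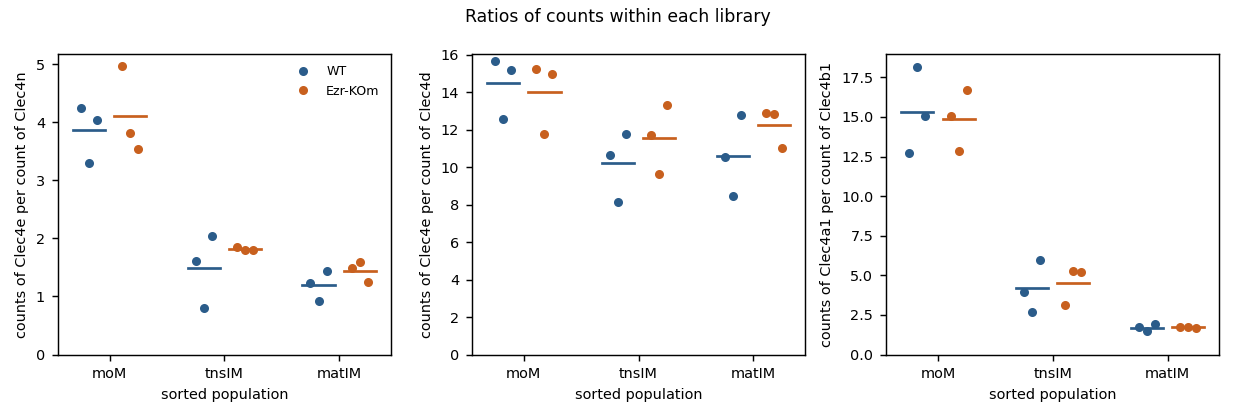
Counts of one gene per count of another within each library (y axes, from 0), by sorted population (x axis) and genotype (colour); points are libraries and bars are means of 3. *Clec4e* per *Clec4n* dropped from 3.30 to 4.97 in moMs to 0.806 to 2.04 in tnsIMs, *Clec4e* per *Clec4d* moved less, and *Clec4a1* per *Clec4b1* dropped at each step.

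*Clec4b1*, DCAR, a receptor for mycobacterial glycolipids, was the least abundant of the 10 genes in moMs, and the one that rose at both steps. It was at 12.9, 9.45 and 12.6 CPM in WT moMs, 25.4, 31.5 and 17.2 CPM in WT tnsIMs, and 37.3, 48.0 and 39.7 CPM in WT matIMs. The *Ezr*-KOm libraries had 9.05 to 12.3 CPM in moMs, 21.2 to 30.6 CPM in tnsIMs and 39.2 to 57.5 CPM in matIMs. The 3 populations did not overlap in either genotype. The first step was 1.08 ± 0.22 on the log2 scale in WT (adjusted p = 0.00192) and 1.21 ± 0.22 in *Ezr*-KOm (adjusted p = 0.00112). The second was 0.76 ± 0.22 in WT (adjusted p = 0.0195) and 0.92 ± 0.22 in *Ezr*-KOm (adjusted p = 0.00505). The WT second step was not called without the first or the third WT tnsIM library or the second WT matIM library, at 0.76, 0.50 and 0.61, and the *Ezr*-KOm second step was not called without the third *Ezr*-KOm matIM library, at 0.71. Over both steps the level rose 3.58-fold in WT (adjusted p = 6.97e-06) and 4.41-fold in *Ezr*-KOm (adjusted p = 1.27e-06). Markers of several other cell types also differed between these populations. From WT moMs to WT matIMs 8 of 9 conventional and 5 of 6 mature migratory dendritic cell markers were called higher. So were 5 of 5 B cell, 6 of 8 alveolar macrophage, 4 of 6 epithelial and 5 of 11 neutrophil markers. Called lower were 2 of the 11 neutrophil, 1 of the 8 alveolar macrophage, 1 of the 7 T and NK cell and 4 of the 5 endothelial markers. The counts in both directions were the same in *Ezr*-KOm. The B cell markers summed to 8.77 to 13.2 CPM in WT moMs, 39.05 to 59.3 CPM in WT tnsIMs and 147 to 219.8 CPM in WT matIMs. The summed level of the alveolar macrophage markers went the other way, from 5276 to 6589 CPM in WT moMs to 554 to 727 CPM in WT matIMs, most of it *Chil3*. That of the 11 neutrophil markers also fell, from 782 to 877 CPM in WT moMs to 262 to 333 CPM in WT matIMs.

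*Clec5a*, which signals through DAP12, was called lower at the second step only. It had 282, 316 and 298 CPM in WT moMs, 357, 466 and 395 CPM in WT tnsIMs, and 234, 201 and 208 CPM in WT matIMs. The 3 groups did not overlap, with tnsIMs highest and matIMs lowest. The second step was -0.92 ± 0.18 in WT (adjusted p = 0.000910) and -1.08 ± 0.18 in *Ezr*-KOm (adjusted p = 0.000221). The first was 0.44 ± 0.18 in WT (adjusted p = 0.081) and 0.23 ± 0.18 in *Ezr*-KOm (adjusted p = 0.45). From moM to matIM it was -0.48 ± 0.18 in WT (adjusted p = 0.055) and -0.85 ± 0.18 in *Ezr*-KOm (adjusted p = 0.00138), where matIMs had 133 to 218 CPM and moMs 284 to 385 CPM.

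*Clec7a*, dectin-1, the receptor for beta-glucans, was not called in any of the comparisons. Its levels were 1261, 1105 and 1091 CPM in WT moMs, 1242, 1471 and 1211 CPM in WT tnsIMs, and 1347, 1094 and 984 CPM in WT matIMs. The *Ezr*-KOm libraries spread more widely, from 1016.5 to 1496.5 CPM in moMs, 949 to 1780.0 CPM in tnsIMs and 1081 to 1458 CPM in matIMs. All of these ranges overlapped. The log2 fold changes between WT populations lay between -0.20 and 0.18, each with a standard error of 0.20. As a share of the length-scaled level of all 10 genes, *Clec7a* took 25.0 to 26.5% in WT moMs, 25.6 to 27.2% in WT tnsIMs and 32.5 to 33.5% in WT matIMs, while *Clec4e* took 23.6 to 28.1%, 10.4 to 18.7% and 9.54 to 12.7%.

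Of the inhibitory receptors, *Clec12a* was lower at each step in WT and *Clec4a2* at the second only. *Clec12a* was at 303, 332 and 378 CPM in WT moMs, 231, 252 and 283 CPM in WT tnsIMs, and 160.02, 180.1 and 184 CPM in WT matIMs, with no overlap. Its first step was -0.40 ± 0.14 in WT (adjusted p = 0.0392) and -0.32 ± 0.13 in *Ezr*-KOm (adjusted p = 0.13). With the replicate number as a block, the *Ezr*-KOm value was -0.31 ± 0.10 (adjusted p = 0.0350), within a range of 0.0350 to 0.39 over the alternatives. The WT call of the first step held in 13 of the 18 fits that left out 1 library and was lost, at -0.41 to -0.32, without the second or the third WT moM, the first or second WT tnsIM or the third WT matIM library. It was also lost in the same 5 of the 9 other settings as that of *Clec4e*, at -0.40 to -0.31. With the block the WT first step of *Clec12a* was -0.40 ± 0.10 (adjusted p = 0.00615, within 0.00615 to 0.16 over the alternatives). Its second step was -0.55 ± 0.14 in WT (adjusted p = 0.00688) and -0.47 ± 0.14 in *Ezr*-KOm (adjusted p = 0.0185), the latter lost without the first or second *Ezr*-KOm matIM library, at -0.45 and -0.46, and with library totals, at -0.43. *Clec4a2* was at 182, 144 and 186 CPM in WT moMs, 155, 152 and 139 CPM in WT tnsIMs, and 95.4, 89.7 and 84.0 CPM in WT matIMs. The moM and tnsIM ranges overlapped, and the matIMs were below both. The second step of *Clec4a2* was -0.73 ± 0.16 in WT (adjusted p = 0.00245) and -0.76 ± 0.16 in *Ezr*-KOm (adjusted p = 0.00163), and the first was -0.20 ± 0.16 and -0.10 ± 0.16 (adjusted p = 0.39 and 0.76).

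*Clec4a1* and *Clec4a3*, close relatives of DCIR that lie side by side at one end of the 368 kb stretch, had most of their fall at the first step. *Clec4a1* went from 164, 171 and 189 CPM in WT moMs to 100.04, 83.9 and 103 CPM in WT tnsIMs and 64.7, 70.1 and 76.0 CPM in WT matIMs. *Clec4a3* went from 311, 275 and 285 CPM to 152, 150.3 and 157 CPM and 105, 122 and 120.3 CPM in the same groups. Neither gene overlapped between the 3 WT populations. The first step of *Clec4a1* was -0.87 ± 0.15 in WT (adjusted p = 0.000324) and -0.54 ± 0.15 in *Ezr*-KOm (adjusted p = 0.0168). That of *Clec4a3* was -0.92 ± 0.16 in WT (adjusted p = 0.000437) and -0.68 ± 0.16 in *Ezr*-KOm (adjusted p = 0.00691). The *Ezr*-KOm first step was lost for both genes without the third *Ezr*-KOm moM library, at -0.44 and -0.53, and for *Clec4a1* also without the first *Ezr*-KOm tnsIM library, at -0.47, and with library totals, at -0.45. At the second step *Clec4a1* was called in WT at -0.44 ± 0.15 (adjusted p = 0.0408), and in *Ezr*-KOm it was at -0.42 ± 0.15 (adjusted p = 0.053), or -0.43 ± 0.11 with the replicate block (adjusted p = 0.00879, within 0.00726 to 0.18 over the alternatives). *Clec4a3* was at -0.41 ± 0.16 in WT (adjusted p = 0.091), or -0.40 ± 0.14 with the block (adjusted p = 0.0449, within 0.0313 to 0.21), and at -0.23 ± 0.16 in *Ezr*-KOm (adjusted p = 0.38). The WT call of *Clec4a1* at the second step held in 13 of the 18 fits without 1 library and was lost, at -0.47 to -0.42, without the first or the third WT tnsIM, the first or second WT matIM or the second *Ezr*-KOm matIM library, and with library totals, at -0.41. On the log2 scale, WT tnsIMs lay 66.3% of the way from moM to matIM for *Clec4a1* and 69.5% for *Clec4a3*, against 10.2% for *Clec4d*, 21.6% for *Clec4a2*, 40.5% for *Clec4e* and 42.5% for *Clec12a*. In *Ezr*-KOm mice these shares were 56.2% for *Clec4a1*, 74.2% for *Clec4a3*, 11.7% for *Clec4d*, 11.03% for *Clec4a2*, 28.1% for *Clec4e* and 40.2% for *Clec12a*. That of *Clec5a*, which was called between the ends in *Ezr*-KOm alone, was -26.6%, since its tnsIM level lay above that of moMs. They come from group means and have no test. Counts of *Clec4a1* per count of *Clec4b1*, which lie within the same stretch, were 12.7 to 18.1 in WT moMs, 2.67 to 5.98 in WT tnsIMs and 1.46 to 1.92 in WT matIMs.

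Counted by step, the first in WT had 2 genes higher and 4 lower, beside 13% and 8.61% of all genes tested. The second had 1 higher and 7 lower, beside 8.32% and 10.2%. In *Ezr*-KOm mice 2 genes were higher and 2 lower at the first step, beside 9.23% and 5.04%, and 1 higher and 6 lower at the second, beside 8.37% and 9.85%. The calls shared by both genotypes were 4 at the first step, *Clec4n*, *Clec4b1*, *Clec4a1* and *Clec4a3*, and 7 at the second. Here too the share of all genes called alike was not counted. The *Ezr*-KOm count at the first step was 1 without the third *Ezr*-KOm moM library and 2 without the first *Ezr*-KOm tnsIM library, and the WT count at the second step was 5 without the second WT matIM library. *Clec12a* and *Clec4e* were called at the first step in WT and not in *Ezr*-KOm, and *Clec4a1* likewise at the second, and the tests of these differences are given with the genotype comparison below.

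TnsIMs were also set against the mean of moMs and matIMs, which asks whether a gene peaks or dips in the middle population. In WT, 2 of the 10 genes were above that mean and 0 below, beside 10.1% and 4.55% of all genes tested. They were *Clec4n*, by 0.79 ± 0.17 on the log2 scale (adjusted p = 0.00332), and *Clec5a*, by 0.68 ± 0.15 (adjusted p = 0.00315). *Clec4d* was at 0.41 ± 0.17 (adjusted p = 0.12), and with the replicate block at 0.44 and called (adjusted p = 0.00538, within 0.00464 to 0.29 over the alternatives), which made 3 genes in WT. In *Ezr*-KOm, 3 were above and 0 below, beside 8.06% and 2.9% of all: *Clec4n* by 0.76 ± 0.17 (adjusted p = 0.00562), *Clec5a* by 0.65 ± 0.15 (adjusted p = 0.00555) and *Clec4d* by 0.54 ± 0.17 (adjusted p = 0.0432). At an unadjusted p under 0.05 the same comparison held 3 genes in WT and 4 in *Ezr*-KOm, beside 26.4% and 22.1% of all genes tested. DESeq2 called 2 and 3 at an adjusted p, and its share of all genes is not given here. Without the second WT tnsIM library *Clec4n* was at 0.56 and no longer called in WT, which left 1 gene, *Clec5a*. The *Ezr*-KOm call of *Clec4d* held in 12 of the 18 fits that left out 1 library, at 0.47 to 0.58 in the other 6, which left out the first or the third moM, the first or second tnsIM or the second or the third matIM library of that genotype. It was also lost with only the groups compared, at 0.54.

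The comparison of genotypes asks whether the loss of ezrin shifts these receptors within a population, and no member was called. In moMs 0 of 10 genes passed, beside 0.171% of all genes tested; in tnsIMs 0 of 10, beside 0.164%; and in matIMs 0 of 10, beside 0.152%. The rule of the study takes a gene whose unadjusted p is under 0.05 and whose log2 fold change is beyond 0.75 either way, and by it the count was also 0 in each population, beside 2.51%, 1.83% and 2.4% of all genes. At an unadjusted p under 0.05, 0 of the 10 passed in any population with edgeR, beside 3.74%, 3.24% and 3.84% of all genes in moMs, tnsIMs and matIMs. With DESeq2 0 passed, and its share of all genes is not given here. The log2 fold changes lay between -0.16 and 0.25 in moMs, -0.07 and 0.36 in tnsIMs, and -0.20 and 0.27 in matIMs, with standard errors of 0.13 to 0.23. The lowest unadjusted p was 0.112, for *Clec4e* in tnsIMs, at 0.36 ± 0.21. There the *Ezr*-KOm libraries, at 1669.7 to 2016 CPM, all lay above the WT libraries, at 1116 to 1567 CPM. No other gene and population of the 30 was without overlap between genotypes. The share of all genes without such overlap was not counted, so this separation cannot be set against a background. The next lowest unadjusted p was that of *Clec4a3* in matIMs, at 0.27 ± 0.16, with 117 to 159 CPM in *Ezr*-KOm and 105 to 122 CPM in WT.

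**Figure D4:**
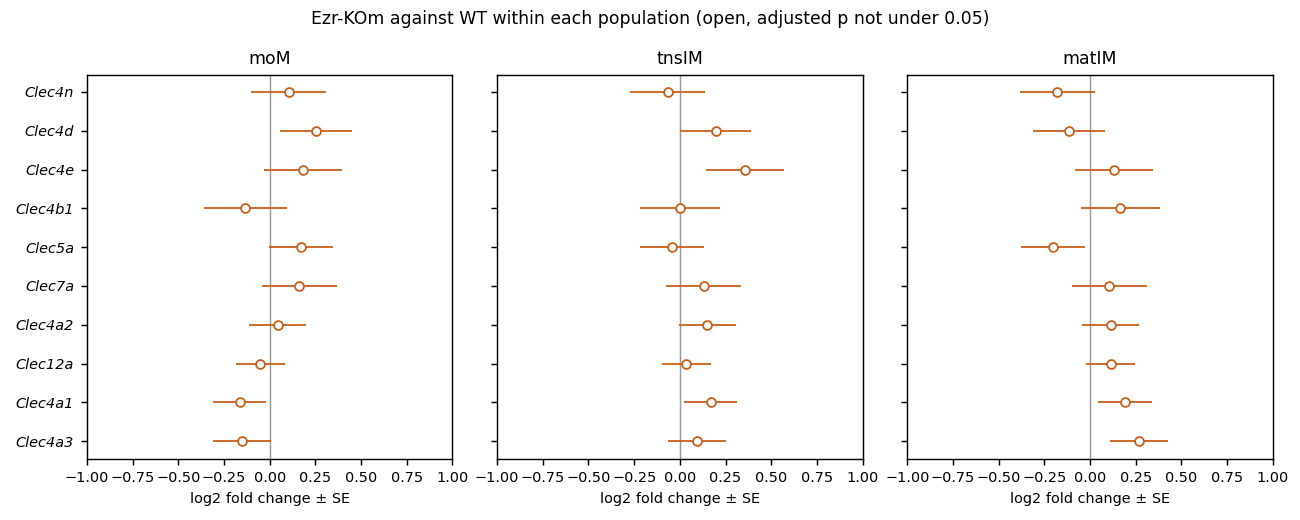
Log2 fold change of *Ezr*-KOm against WT (x axis, bars are the standard error) for each of the 10 genes within moMs, tnsIMs and matIMs; open points did not pass an adjusted p of 0.05. All 30 values lay between -0.20 and 0.36.

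Whether the genotype effect differed between populations was tested directly as an interaction. Of the 10 genes, 0 passed between tnsIM and moM, 0 between matIM and tnsIM and 0 between matIM and moM, beside 0.0% of all genes in each. At an unadjusted p under 0.05, 0 of the 10 passed with edgeR in each, beside 1.47%, 1.16% and 1.7% of all genes. With DESeq2 0 passed, and its share of all genes is not given here. *Clec4e* and *Clec12a* at the first step differed between genotypes by 0.17 ± 0.30 and 0.09 ± 0.19 on the log2 scale, and *Clec4a1* at the second by 0.02 ± 0.21. The interaction nearest to the threshold was that of *Clec4a3* from moM to matIM, 0.42 ± 0.23 (unadjusted p = 0.0797, adjusted p = 1.00), a fall of 1.33 in WT and of 0.91 in *Ezr*-KOm. The standard errors of the interactions were 0.19 to 0.31.

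The signalling proteins that these receptors use were taken as a list of 27 genes, all of them tested. From WT moMs to WT matIMs, 2 were higher and 11 lower, or 7.41% and 40.7%, beside 13.4% and 11.4% of all genes tested, with a median log2 fold change of -0.38. At the first step 3 were higher and 8 lower, or 11.1% and 29.6%, beside 13% and 8.61%. At the second 2 were higher and 2 lower, 7.41% each, beside 8.32% and 10.2%, close to the share of all genes. The largest fall was that of *Ms4a4a*, a membrane protein that associates with dectin-1, from 461 to 663 CPM in WT moMs to 191 to 220.02 CPM in WT tnsIMs and 78.2 to 90.0 CPM in WT matIMs (log2 fold change over both steps -2.74 ± 0.23, adjusted p = 5.89e-08). *Lyn*, a Src family kinase, fell by 0.76 ± 0.17 at the first step (adjusted p = 0.00309), and *Plcg2*, the phospholipase downstream of Syk, by 0.62 ± 0.13 (adjusted p = 0.00242). *Hcst*, the adaptor DAP10, fell by 0.95 ± 0.21 from moM to matIM (adjusted p = 0.00210). *Egr2*, an early response gene, was, like *Clec4n*, highest in tnsIMs: it rose by 0.61 ± 0.14 at the first step (adjusted p = 0.00355) and fell by 0.99 ± 0.14 at the second (adjusted p = 4.24e-05). *Src* and *Egr3* rose at the first step, by 1.19 ± 0.25 and 1.16 ± 0.36 (adjusted p = 0.00219 and 0.0283). *Nfatc2*, a transcription factor of the calcineurin pathway, and *Cblb*, a ubiquitin ligase that restrains Syk-coupled receptors, rose at the second step, by 1.37 ± 0.29 and 1.05 ± 0.26 (adjusted p = 0.00203 and 0.00667). None of the 27 was called between genotypes in any population with edgeR, and 1, 1 and 2 of them had an unadjusted p under 0.05 in moMs, tnsIMs and matIMs, or 3.7%, 3.7% and 7.41%, beside 3.74%, 3.24% and 3.84% of all genes.

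A list of 42 other C-type lectins and lectin-like receptors had 39 genes in the table and 37 tested. From WT moMs to WT matIMs, 19 of the 37 were higher and 8 lower, or 51.4% and 21.6%, beside 13.4% and 11.4% of all genes tested, with a median log2 fold change of 1.19, where that of the 10 genes above was -0.94. *Mgl2*, a galactose-type lectin of dendritic cells and macrophages, rose at each step, from 4.67 to 8.00 CPM in WT moMs to 33.6 to 76.8 CPM in WT tnsIMs and 265 to 407 CPM in WT matIMs. Its relative *Clec10a* was at 17.0 to 27.3 CPM, 19.0 to 38.0 CPM and 146 to 192 CPM in the same groups, and it rose by 2.64 ± 0.31 at the second step (adjusted p = 5.04e-06). *Cd209d*, of the DC-SIGN family, and *Klrd1*, the lectin-like CD94, rose by 5.94 ± 0.53 and 5.26 ± 0.28 over both steps (adjusted p = 1.25e-07 and 2.68e-10), from at most 0.399 and 1.88 CPM in WT moMs. *Clec14a* and *Clec1a*, which endothelial cells express, were highest in tnsIMs, at 38.4 to 72.1 CPM and 16.1 to 33.2 CPM in WT, where the 5 endothelial markers summed to 235 to 357 CPM against 67.3 to 102 CPM in WT moMs and 47.8 to 61.4 CPM in WT matIMs. *Cd302*, *Cd93* and *Thbd* fell from moM to matIM, by 1.40 ± 0.15, 1.89 ± 0.20 and 2.30 ± 0.31 on the log2 scale (adjusted p = 1.01e-06, 1.35e-06 and 2.19e-05). *Clec2i* and *Clec2g* fell at the first step, by 1.89 ± 0.35 and 1.98 ± 0.58 (adjusted p = 0.000718 and 0.0197). Between genotypes 0 of the 37 were called with edgeR in any population, and 2, 0 and 3 had an unadjusted p under 0.05 in moMs, tnsIMs and matIMs, or 5.41%, 0% and 8.11%, beside the same shares of all genes as above.

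Among the other genes tested, the ones whose pattern over the 18 libraries was nearest to each receptor were found from the root mean square difference of log2 CPM after each gene was centred on its own mean. For *Clec4e* they were *Dmxl2* and *Slc16a10*, at 0.21 and 0.23, where its own spread was 0.70. For *Clec4n* they were *Cd9* and *Slc3a2*, at 0.19 and 0.20, with a spread of 0.43. For *Clec4b1* they were *Hmgn1* and *Acap1*, at 0.21 and 0.23, with a spread of 0.85. *Clec4d* was nearest to *Cdc42ep4* and *Ets2*, *Clec5a* to *Alas1* and *Lpcat2*, *Clec7a* to *Nmi* and *Nt5c3*, and *Clec12a* to *Rab32* and *Dhx38*. *Clec4a1* was nearest to *Arap1* and *Tnfrsf1a*, *Clec4a2* to *Glrx* and *Fos*, and *Clec4a3* to *Mettl9* and *Gmfg*. Within the 10 genes the closest pairs were *Clec4a1* with *Clec4a3*, at 0.19, and *Clec4a1* with *Clec12a*, at 0.20, and *Clec4d* was the closest to *Clec4e*, at 0.27. *Clec4b1* was 0.89 from the nearest of the others.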

How the data were processed

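The authors aligned the reads with STAR 2.7.9a to GRCm39 and deposited whole-number counts per gene, without normalization; the strand column used is not named, so overlapping genes on opposite strands could share counts. 0 columns belonged to no labelled sample. *Clec7a* is listed there as a polymorphic pseudogene. Of the 10 genes, only *Clec5a* and *Clec4a2* overlapped exons of other genes, by 44 and 16 bases.

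Tests used edgeR 4.0.16 (R 4.3.3). filterByExpr on the 6 groups (smallest count 10) left 15811 genes, TMM factors were 0.931 to 1.07, and all 18 libraries entered a single quasi-likelihood fit with a mean per group. p-values were two-sided and adjusted over all genes tested. CPM use TMM-scaled totals; RPKM divide CPM by the exonic length in Gencode vM39, a later annotation of the same build. Log2 CPM for likeness used a prior count of 2. Tested on simulated data (matIM against moM, WT, 15361 genes), edgeR recovered 74.5% of 200 genes that differed by 2 on the log2 scale. Of its calls, 4.49% were false. The simulated counts had the spread that edgeR itself estimated and no effect of the replicate number. Changes smaller than 2 were not simulated, so these rates do not describe them. No replicate pair was identical, and the labels do not say that libraries of one number are from one mouse, so p-values measure the spread between these samples.

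Deviations from the group means of libraries with the same number correlated at 0.102 to 0.316 between genotypes and at 0.169 to 0.397 between adjacent populations, against at most 0.0508 for different numbers. Between moM and matIM the lowest was 0.0905, also above every value for different numbers, so libraries of one number went together throughout. The main fit holds no term for the numbers, so its standard errors and adjusted p leave this pairing out. The replicate block was run as an alternative only. For *Clec4d* at the WT second step the standard error was 0.20 in the main fit and 0.12 with the block.

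The genes, lists and tests were chosen with earlier results of these data known. The text names all 10 genes; from the signalling and other lectin lists, for each direction of each WT comparison of populations, at most the 3 called genes of smallest p; and the 2 nearest genes by pattern. Alternatives were DESeq2 1.42.0, upper-quartile scaling, library totals, no filter, at least 10 counts in every library, a robust fit and only the groups compared. Others were a replicate block, a block for each replicate number within a genotype, each library left out, and the study's own rule. Upstream sequences were read from the GRCm39 genome at Gencode vM39 starts. Protein sequences were not used here. Figures were drawn with matplotlib from values computed in Python 3.11.15.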

Additional observations from a re-analysis of the deposited data

How the results depend on the processing

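Leaving out 1 library gave 4 to 7 called genes of the 10 at the WT first step, 5 to 9 at the WT second step (5 without the second WT matIM library), 7 to 8 between the WT ends, 1 to 4 at the *Ezr*-KOm first step (1 without the third moM and 2 without the first tnsIM library), 6 to 8 at the *Ezr*-KOm second step, 8 between the *Ezr*-KOm ends, 1 to 3 and 2 to 3 for tnsIMs against the mean of the others in WT and *Ezr*-KOm, and 0 for genotype and interactions. Under the study's rule the WT second step had 4, the *Ezr*-KOm first step 1, and tnsIMs against the mean 1 in each genotype. With the replicate block, *Clec5a* between the WT ends (-0.47, adjusted p = 0.0407) and *Clec4d* in WT tnsIMs against the mean (0.44, adjusted p = 0.00538) were also called; beyond these and the values in the report, the block changed no other call. A block for each replicate number within a genotype was also run. With it the adjusted p of *Clec4e* in *Ezr*-KOm was 0.0316 at the first step and 0.0420 for tnsIMs against the mean. Library totals ended 5 calls and only the groups compared 4, all given in the report; *Clec5a* at the WT first step was called with upper-quartile scaling, library totals and only the groups compared (lowest adjusted p = 0.0317). Library totals moved the median of all genes by 0.13 on the log2 scale between *Ezr*-KOm matIMs and moMs.

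Every sign change was in a value that was not called. *Clec4b1* in tnsIMs between genotypes became -0.014 with DESeq2 and -0.010 with at least 10 counts in every library. *Clec7a* between the WT ends became 0.034 with upper quartiles, 0.080 with library totals and 0.0035 with at least 10 counts, and between the *Ezr*-KOm ends 0.056 with library totals. *Clec4n* there became 0.044 with library totals. With upper quartiles *Clec4a2* at the *Ezr*-KOm first step became 0.0034 and *Clec4a1* in *Ezr*-KOm tnsIMs against the mean 0.0037. The *Clec7a* interaction of matIM against tnsIM became 0.0015 with the replicate block and 0.023 with the block for each number within a genotype. Log2 fold changes that changed sign when 1 library was left out ranged as follows. Between genotypes in moMs they were -0.13 to 0.034 for *Clec12a*, -0.059 to 0.11 for *Clec4a2* and -0.014 to 0.19 for *Clec4n*. Between genotypes in tnsIMs they were -0.0015 to 0.11 for *Clec12a*, -0.11 to 0.28 for *Clec4a2*, -0.0059 to 0.23 for *Clec4a3*, -0.21 to 0.21 for *Clec4b1*, -0.25 to 0.19 for *Clec4n*, -0.12 to 0.067 for *Clec5a* and -0.015 to 0.35 for *Clec7a*. For the interaction of matIM against tnsIM they were -0.12 to 0.12 for *Clec4a1*, -0.16 to 0.23 for *Clec4a2*, -0.045 to 0.38 for *Clec4b1*, -0.38 to 0.075 for *Clec4n*, -0.29 to 0.031 for *Clec5a* and -0.25 to 0.13 for *Clec7a*. For *Ezr*-KOm tnsIMs against the mean they were -0.13 to 0.035 for *Clec4a1* and -0.041 to 0.29 for *Clec4b1*. For the interaction of tnsIM against moM they were -0.15 to 0.24 for *Clec4a2*, -0.072 to 0.35 for *Clec4b1*, -0.18 to 0.10 for *Clec4d*, -0.35 to 0.10 for *Clec4n* and -0.18 to 0.19 for *Clec7a*. At the *Ezr*-KOm first step they were -0.35 to 0.039 for *Clec4a2*. For WT tnsIMs against the mean they were -0.013 to 0.40 for *Clec4b1*. Between genotypes in matIMs they were -0.29 to 0.10 for *Clec4d*, -0.018 to 0.36 for *Clec4e*, -0.35 to 0.0072 for *Clec4n* and -0.041 to 0.26 for *Clec7a*. For the interaction of matIM against moM they were -0.22 to 0.18 for *Clec4e* and -0.20 to 0.10 for *Clec7a*. Between the *Ezr*-KOm ends they were -0.23 to 0.025 for *Clec4n* and -0.24 to 0.035 for *Clec7a*. Between the WT ends they were -0.18 to 0.083 for *Clec7a*. The cause was not tested. With 3 libraries a group, standard errors of 0.13 to 0.23 limit what genotype differences could be seen.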
